A study of Caenorhabditis elegans with 16 samples.

Results

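The cathepsin B-like cysteine proteases *cpr-1* to *cpr-6* of *C. elegans* were followed in *hlh-30(lf)* and wild-type L1 larvae under feeding, starvation and refeeding. They are 6 of the 46726 genes listed and of the 30177 genes with a count in at least 1 sample, and all 6 passed that filter. The members were chosen by their gene names, and the family was chosen on these samples because *cpr-2* had the largest rise in starved relative to fed wild-type worms. That rise is therefore a description, and no test is given for any member in starved against fed wild type, nor for *cpr-2* in any comparison with fed or starved wild-type samples.

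RNA from whole L1 worms was sequenced in 8 groups of 2 samples, each group being 1 genotype in 1 of 4 states. The mutant, called *hlh-30(lf)*, carried by the study's methods the deletion allele *tm1978*, which lacks part of the gene and was outcrossed to the N2 strain that served as wild type. Starved worms were held for 33 hours in M9, a buffer without food, and refed worms were then given CeMM, a chemically defined medium, for 3 or 15 hours. Fed worms were collected 18 hours after eggs had been placed on dishes seeded with OP50 bacteria. Fed and starved worms thus differed in age and culture, and worms kept without food for 3 or 15 hours more were not analysed here, so starvation cannot be told apart from age and culture, nor refeeding from added time. By the study's methods the samples of a group were biological replicates from experiments run on separate occasions, each with its own controls, and the labels do not say which samples shared an occasion.

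Cathepsin B is a papain-like cysteine protease of the lysosome. It is made as an inactive proenzyme whose propeptide blocks the active site until it is removed in an acid compartment, and a loop beside the active site lets the mature enzyme also trim the C-terminal end of its substrates. Nematodes carry an expanded set of these genes, several of which are active in the intestine, where the enzymes digest food and turn over proteins in lysosomes. HLH-30 is the worm counterpart of the mammalian transcription factor TFEB, which controls lysosome and autophagy genes.

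In the authors' files, which use WBcel235, 5 members lie on chromosome V and *cpr-6* on chromosome X. Along chromosome V, *cpr-5* (WBGene00000785, W07B8.5) covers 1132597 to 1133993 on the minus strand and *cpr-4* (WBGene00000784, F44C4.3) covers 6614674 to 6615845 on the plus strand. *cpr-1* (WBGene00000781, C52E4.1) follows at 11975515 to 11976759 on the plus strand, *cpr-3* (WBGene00000783, T10H4.12) at 15296834 to 15298676 on the minus strand and *cpr-2* (WBGene00000782, F36D3.9) at 16532989 to 16534110 on the minus strand. *cpr-6* (WBGene00000786, C25B8.3) covers 6607203 to 6609046 of chromosome X on the plus strand. The gaps between neighbouring members on chromosome V were 1.23 to 5.48 megabases, so the members are not side by side. Their counted exons summed to between 1022 bases in *cpr-2* and 1345 bases in *cpr-3*, in 2 blocks in *cpr-4* to 8 blocks in *cpr-6*. The exons of *cpr-4* shared 21 bases with a piRNA gene on the opposite strand that had 0.0 CPM in every library, and those of the other 5 members overlapped no other gene. By the methods, reads counted had 1 place in the genome and 1 gene there, so reads from stretches identical between members were left out.

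Total counts per sample were 29205691 to 40955529, so that 3 counts equalled 0.0733 to 0.103 CPM (counts in each 1e6 of the library), which reflects counting error alone. Markers of intestine, body wall muscle, neurons, epidermis and germ line were present in every library, with lowest sums of 1124, 7416, 315.8, 63.53 and 19.8 CPM. The targeted gene *hlh-30* was at 425 and 375 CPM in fed mutants and 633 and 664 CPM in fed wild-type worms, but at 781 and 749 CPM in starved samples carrying the mutant label and 673 and 606 CPM in starved wild type. The files count the gene as a whole and cannot show the deletion, so starved mutants are called libraries labelled *hlh-30(lf)*. The wild-type replicate 1 libraries of the starved, CeMM 3 h and CeMM 15 h states held 42.2, 35.2 and 6.75 CPM of the adult yolk protein gene *vit-2*, against at most 0.485 CPM in every other library. Ribosomal RNA genes took 1.10% to 12.9% of the counts, most in wild-type CeMM 15 h replicate 2.

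**Figure D1:**
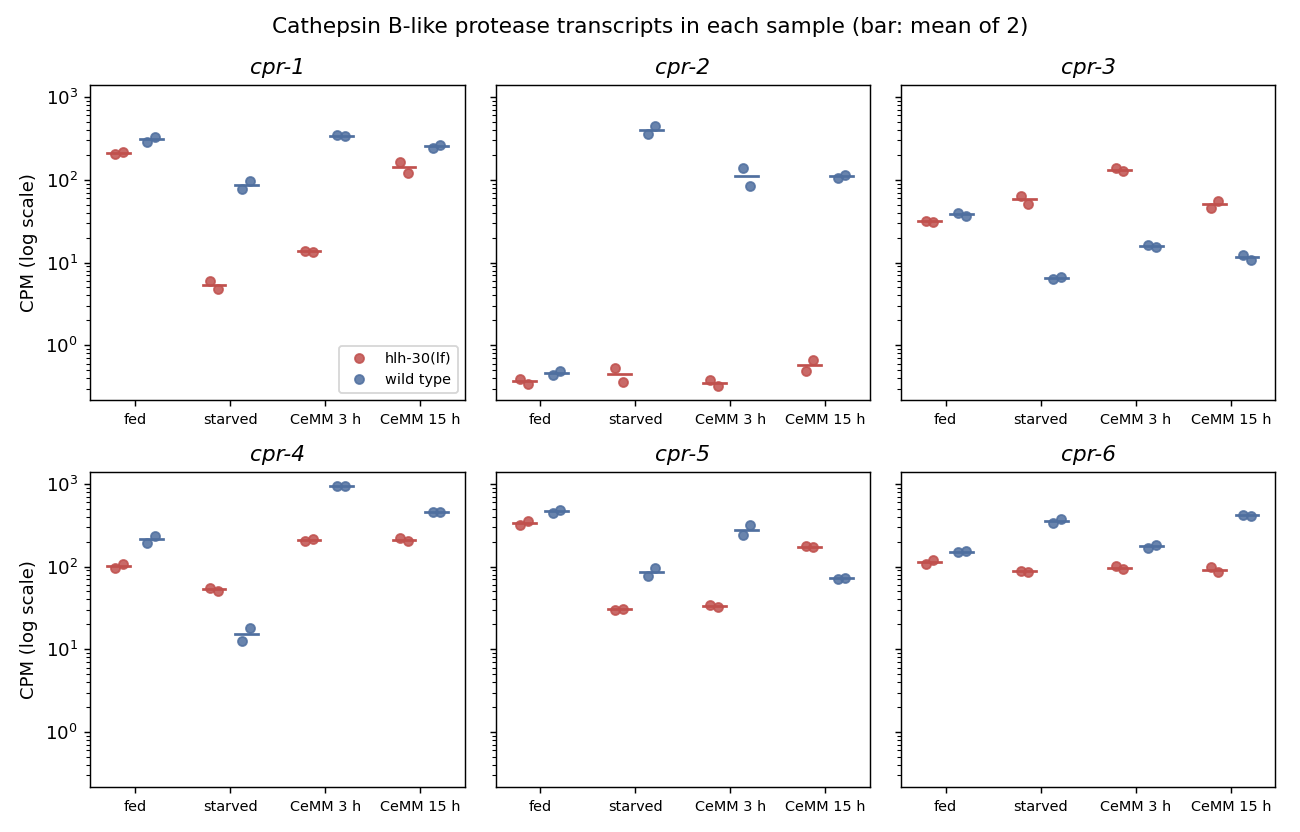
CPM of each *cpr* gene in each of the 16 samples, on a log axis, with the mean of the 2 samples as a bar, *hlh-30(lf)* left of wild type in each state. *cpr-2* stood above 80 CPM in the starved and refed wild-type samples and below 1 CPM elsewhere, whereas *cpr-3* was higher in *hlh-30(lf)* samples than in their wild-type counterparts in all states except fed.

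*cpr-2* was at a trace in every library labelled *hlh-30(lf)*, from 0.324 to 0.664 CPM, or 10 to 24 counts, in all 4 states. Starved libraries labelled *hlh-30(lf)* had 0.532 and 0.356 CPM, against 359 and 448 CPM in starved wild-type worms. Fed *hlh-30(lf)* worms had 0.391 and 0.342 CPM, against 0.436 and 0.487 CPM in fed wild-type worms. The gene was therefore abundant in starved wild type alone among these 4 groups. As a description, it was 848-fold higher in starved than fed wild-type worms (log2 fold change 9.73, standard error 0.36) and 959-fold lower in starved libraries labelled *hlh-30(lf)* than in starved wild type (log2 fold change -9.90, standard error 0.36). The sizes are imprecise because the lower group rested on few counts, 14 and 16 in fed wild type.

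After 3 hours of CeMM, *cpr-2* had 0.376 and 0.324 CPM in *hlh-30(lf)* worms, against 139.9 and 84.7 CPM in wild type. After 15 hours it had 0.483 and 0.664 CPM in *hlh-30(lf)* worms, against 106 and 113.4 CPM in wild type. Both refed states thus showed the same separation of genotypes. These samples were not in the contrast that chose the family, but refed worms had first been starved for the same 33 hours. The tests below are therefore not an independent check of the starved difference. All tests across genes are edgeR's quasi-likelihood test with Benjamini-Hochberg adjustment over the 30177 genes, and a gene was called at an adjusted p of at most 0.05. *cpr-2* was 325-fold lower in *hlh-30(lf)* at 3 hours (log2 fold change -8.34, standard error 0.37, adjusted p = 4.48e-08) and 230.2-fold lower at 15 hours (-7.85, standard error 0.34, adjusted p = 1.04e-07).

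In wild type, *cpr-2* had a log2 fold change of -1.90 (standard error 0.22) after 3 hours of CeMM and -1.68 (standard error 0.22) after 15 hours relative to starved worms, both descriptions. The levels in wild type after 3 and 15 hours overlapped, at means of 112 and 109.7 CPM. Within *hlh-30(lf)*, no difference of *cpr-2* passed the test. Its log2 fold change was 0.15 (standard error 0.68, adjusted p = 1.0) for starved over fed, -0.34 (standard error 0.70, adjusted p = 0.909) for CeMM 3 h over starved, 0.38 (standard error 0.62, adjusted p = 0.776) for CeMM 15 h over starved and 0.53 (standard error 0.65, adjusted p = 0.653) for CeMM 15 h over fed. At 10 to 24 counts per library, changes of the size of these errors were not detectable, and larger ones could be missed too. The wild-type library with yolk transcripts was the lower of the 2 in the starved state and the higher of the 2 at 3 hours. Without the 3 libraries that held yolk transcripts, a setting chosen after seeing the data, the log2 difference of *cpr-2* between CeMM 3 h and starved wild type was -2.44, and no call of any member was lost.

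*cpr-1*, first described in worms as a protease of the gut, had 5.91 and 4.76 CPM in starved libraries labelled *hlh-30(lf)*, against 78.2 and 96.8 CPM in starved wild type. In fed worms it had 206 and 218 CPM in *hlh-30(lf)* and 283 and 332 CPM in wild type. No sample of the fed genotypes overlapped either, but the gap was far narrower than in starved worms. With 3 hours of CeMM *cpr-1* had 13.8 and 13.5 CPM in *hlh-30(lf)*, against 343 and 336 CPM in wild type, and with 15 hours 164 and 122 CPM in *hlh-30(lf)*, against 245 and 265 CPM in wild type. When starved, the mutant-labelled libraries had 17.3-fold less than wild type (log2 fold change -4.11, standard error 0.22, adjusted p = 6.67e-08), 25.7-fold lower at 3 hours (-4.68, standard error 0.21, adjusted p = 1.93e-08) and 2.19-fold lower at 15 hours (-1.13, standard error 0.18, adjusted p = 0.000947). In fed worms the log2 fold change of -0.55 (standard error 0.18) did not pass the test (adjusted p = 0.179), though it did under DESeq2 (adjusted p = 0.00594). It also passed with the compared groups only (adjusted p = 0.00583), with filterByExpr (adjusted p = 0.0443), with the legacy method (adjusted p = 2.23e-06) and without normalization factors (adjusted p = 0.00967).

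*cpr-5* ranked the groups much as *cpr-1* did until the last time point. It had 29.8 and 30.9 CPM in starved libraries labelled *hlh-30(lf)*, against 76.3 and 95.5 CPM in starved wild type, and 34.5 and 32.6 CPM after 3 hours of CeMM in *hlh-30(lf)*, against 239 and 319 CPM in wild type. After 15 hours the order of genotypes was turned round, with 175 and 172 CPM in *hlh-30(lf)* and 71.2 and 72.8 CPM in wild type. Fed worms had 320.3 and 356 CPM in *hlh-30(lf)* and 444 and 485 CPM in wild type. *cpr-5* was 2.97-fold lower in *hlh-30(lf)* when starved (log2 fold change -1.57, standard error 0.17, adjusted p = 1.14e-05) and 8.58-fold lower at 3 hours (-3.10, standard error 0.18, adjusted p = 3.53e-08). At 15 hours it was 1.98-fold higher in *hlh-30(lf)* (0.98, standard error 0.16, adjusted p = 0.000811). The difference in fed worms was not called (log2 fold change -0.47, standard error 0.16, adjusted p = 0.189). It was called under DESeq2 (adjusted p = 0.0209), with the compared groups only (adjusted p = 0.00557) and with the legacy method (adjusted p = 8.55e-05). It was also called without normalization factors (adjusted p = 0.0129) and with replicate number as a block (adjusted p = 0.0141).

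*cpr-4* encodes a secreted member that is known in worms as a carrier of the signal from irradiated to distant tissue. It had 55.5 and 50.04 CPM in starved libraries labelled *hlh-30(lf)*, against 12.6 and 18.1 CPM in starved wild type, its lowest group. After 3 hours of CeMM it had 202 and 213 CPM in *hlh-30(lf)*, against 939.9 and 930.3 CPM in wild type, its highest group. At 15 hours the levels were 219 and 203 CPM in *hlh-30(lf)* and 458 and 452 CPM in wild type, and fed worms had 95.01 and 108 CPM in *hlh-30(lf)* and 194 and 234.9 CPM in wild type. No samples overlapped between genotypes in any state. Relative to wild type, *cpr-4* was 3.26-fold higher in *hlh-30(lf)* when starved (log2 fold change 1.71, standard error 0.17, adjusted p = 7.08e-06). It was lower in the other 3 states, by 2.13-fold when fed (-1.09, standard error 0.16, adjusted p = 0.00204), 4.64-fold at 3 hours (-2.21, standard error 0.17, adjusted p = 4.98e-07) and 2.63-fold at 15 hours (-1.39, standard error 0.16, adjusted p = 4.87e-05).

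*cpr-3* was the member that *hlh-30(lf)* worms had more of in every state but the fed one. It had 64.3 and 51.2 CPM in starved libraries labelled *hlh-30(lf)*, against 6.34 and 6.60 CPM in starved wild type. After 3 hours of CeMM it had 138 and 126 CPM in *hlh-30(lf)*, against 16.4 and 15.3 CPM in wild type, and after 15 hours 45.5 and 55.2 CPM in *hlh-30(lf)*, against 12.5 and 10.8 CPM in wild type. These gaps separated the genotypes in all 3 states, while fed worms lay close together, with 32.1 and 30.9 CPM in *hlh-30(lf)* and 39.2 and 37.0 CPM in wild type. *cpr-3* was 8.51-fold higher in *hlh-30(lf)* when starved (log2 fold change 3.09, standard error 0.12, adjusted p = 6.02e-18), 8.11-fold higher at 3 hours (3.02, standard error 0.11, adjusted p = 2.30e-18) and 3.58-fold higher at 15 hours (1.84, standard error 0.11, adjusted p = 3.16e-13). In fed worms its log2 fold change was -0.29 (standard error 0.11, adjusted p = 0.171), which was called with the compared groups only (adjusted p = 0.0338).

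*cpr-6* varied least, by 4.74-fold between its highest and lowest group means, against 15.3-fold in *cpr-5*, 20.4-fold in *cpr-3*, 60.8-fold in *cpr-4*, 63.7-fold in *cpr-1* and 1153-fold in *cpr-2*. In *hlh-30(lf)* it stayed between 85.1 and 120 CPM in all 8 libraries. It had 88.8 and 86.9 CPM in starved libraries labelled *hlh-30(lf)*, against 339.6 and 380.2 CPM in starved wild type, and 97.8 and 85.1 CPM after 15 hours of CeMM in *hlh-30(lf)*, against 422 and 411 CPM in wild type. After 3 hours it had 100.2 and 93.9 CPM in *hlh-30(lf)*, against 166 and 184 CPM in wild type. Wild-type worms thus had more in the starved and CeMM 15 h states than in the CeMM 3 h state between them. *cpr-6* was 4.30-fold lower in *hlh-30(lf)* when starved (log2 fold change -2.10, standard error 0.10, adjusted p = 9.26e-16), 1.86-fold lower at 3 hours (-0.89, standard error 0.10, adjusted p = 2.20e-08) and 5.54-fold lower at 15 hours (-2.47, standard error 0.10, adjusted p = 1.89e-16). Fed worms had 107 and 120 CPM in *hlh-30(lf)* and 151 and 153 CPM in wild type, 1.35-fold lower in *hlh-30(lf)* (-0.43, standard error 0.10, adjusted p = 0.00738). That call was lost without *hlh-30(lf)* fed replicate 1 (adjusted p = 0.268), wild-type fed replicate 1 (adjusted p = 0.0564) or wild-type fed replicate 2 (adjusted p = 0.113).

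**Figure D2:**
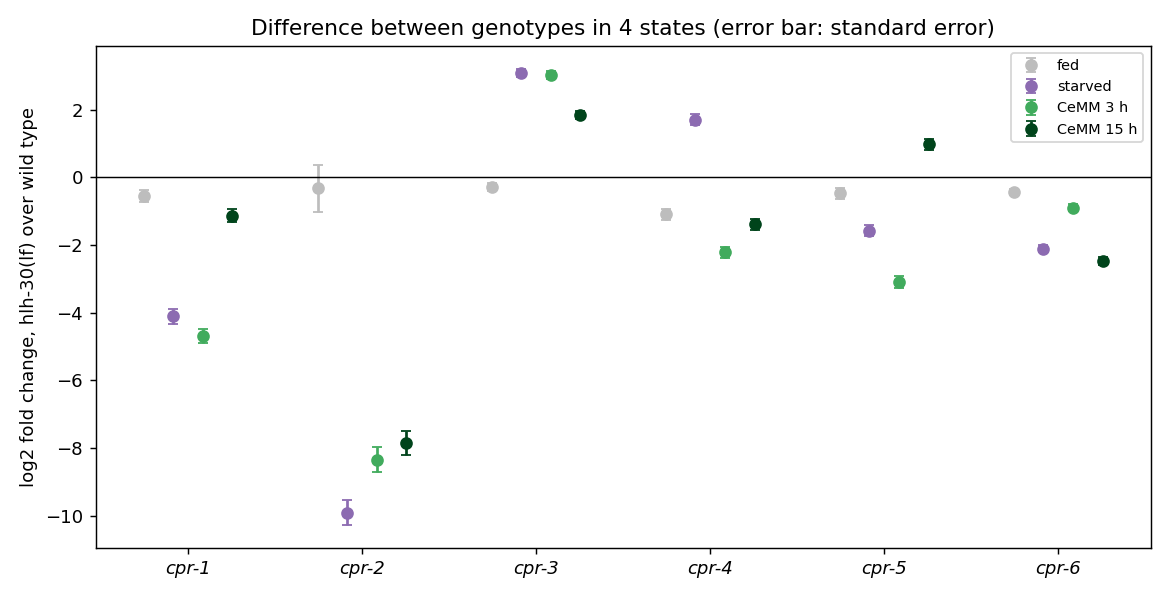
Log2 fold change of each *cpr* gene, *hlh-30(lf)* over wild type, in the 4 states, with the standard error as bar. *cpr-3* lay above 0 in the starved and refed states, *cpr-4* above 0 in the starved state alone, *cpr-5* above 0 at CeMM 15 h alone, and *cpr-1*, *cpr-2* and *cpr-6* below 0 in every state.

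Between genotypes, more members were called lower than higher in *hlh-30(lf)* in each state, and *cpr-3* was called higher in 3 of the 4. Of the 5 members tested in fed worms, 0 were called higher and 2 lower in *hlh-30(lf)* (*cpr-4* and *cpr-6*), where 2.26% of all genes were higher and 2.16% lower. These and later shares are over the 30177 genes with a count, of which filterByExpr, a filter on low counts, kept 17441. They are not shares among genes as abundant as the members, and no excess over them was tested. In starved libraries labelled *hlh-30(lf)*, 2 of 5 tested members were higher (*cpr-3* and *cpr-4*) and 3 lower (*cpr-1*, *cpr-5* and *cpr-6*), against 18.8% and 19.3% of all genes. At CeMM 3 h, 1 of 6 members was higher (*cpr-3*) and 5 were lower, against 17.7% and 18.6% of all genes. At CeMM 15 h, 2 of 6 were higher (*cpr-3* and *cpr-5*) and 4 lower, against 11.7% and 12.4% of all genes. The median log2 fold change of the members tested was -0.47 in fed and -1.57 in starved worms, both without *cpr-2*, and -2.66 in CeMM 3 h and -1.26 in CeMM 15 h worms, where the median over all genes was 0.00.

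Intestinal markers moved in part with these differences. In starved libraries labelled *hlh-30(lf)*, 5 of 7 intestinal markers were lower, 1 was higher and 1 was not called, against 19.3% lower and 18.8% higher of all genes. The markers summed to 1138 and 1124 CPM there, against 3072 and 3426 CPM in starved wild type. The largest part of that gap was *ifb-2*, with means of 609 and 2248 CPM, whereas *act-5* was not lower, with 148 and 98.2 CPM. At CeMM 3 h, 6 of 7 were lower, against 18.6% of all genes. The markers then summed to 1468 and 1450 CPM in *hlh-30(lf)* and 2858 and 3145 CPM in wild type. Their part in the differences of the *cpr* genes was not tested, and in whole worms fewer cells of a type cannot be told apart from less RNA per cell. The 1 marker that was higher in both states was *elt-2*, the regulator of intestinal identity, with 37.6 and 39.1 CPM in starved libraries labelled *hlh-30(lf)* and 17.2 and 16.2 CPM in starved wild type. At CeMM 15 h, 3 of 7 intestinal markers were higher in *hlh-30(lf)*, 2 lower and 2 not called, against 11.7% higher and 12.4% lower of all genes. The 7 summed to 2582 and 2522 CPM in *hlh-30(lf)* and 1987 and 1771 CPM in wild type. Among those that went the other way, *ges-1* had a mean of 20.7 CPM in *hlh-30(lf)* and 79.5 CPM in wild type. In that state *cpr-1*, *cpr-2*, *cpr-4* and *cpr-6* were lower in *hlh-30(lf)*. The markers of fed worms summed to 4236 and 4408 CPM in *hlh-30(lf)* and 4084 and 4329 CPM in wild type. Some markers of other tissues differed too. In starved libraries labelled *hlh-30(lf)* the body wall muscle markers summed to 10070.0 and 14090.0 CPM, against 23880.0 and 23050.0 CPM in starved wild type. Of these 3, 2 were lower and 1 was not called, against 19.3% lower of all genes. The 2 epidermal markers summed to 240.2 and 242.6 CPM, against 81.97 and 72.95 CPM in starved wild type, with 1 higher and 1 not called, against 18.8% higher of all genes. That sum was nearly all *lin-26*, with means of 238.9 and 75.7 CPM, while *dpy-7* had 2.54 and 1.73 CPM. The part of these markers was not tested either.

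With starvation, the members took different courses in the genotypes. In *hlh-30(lf)*, starved libraries had less *cpr-1* than fed worms by 42.4-fold (log2 fold change -5.41, standard error 0.23, adjusted p = 8.52e-09) and less *cpr-5* by 11.8-fold (-3.57, standard error 0.18, adjusted p = 9.84e-09). *cpr-4* was lower by 2.05-fold (-1.04, standard error 0.16, adjusted p = 0.000299) and *cpr-6* by 1.37-fold (-0.46, standard error 0.10, adjusted p = 0.000418), whereas *cpr-3* was higher by 1.72-fold (0.78, standard error 0.11, adjusted p = 4.45e-07). Thus 1 of 6 members was higher and 4 were lower, against 18.4% and 19.1% of all genes. In wild type, the contrast that chose the family, *cpr-2* and *cpr-6* were higher in both starved samples than in both fed samples and the other 4 members lower. There the log2 fold change was 1.21 (standard error 0.10) for *cpr-6*, -3.84 (standard error 0.18) for *cpr-4*, -2.59 (standard error 0.12) for *cpr-3*, -2.47 (standard error 0.17) for *cpr-5* and -1.85 (standard error 0.19) for *cpr-1*. In that contrast 20.1% of all genes were called higher and 20.1% lower, and nothing is read from these shares.

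**Figure D3:**
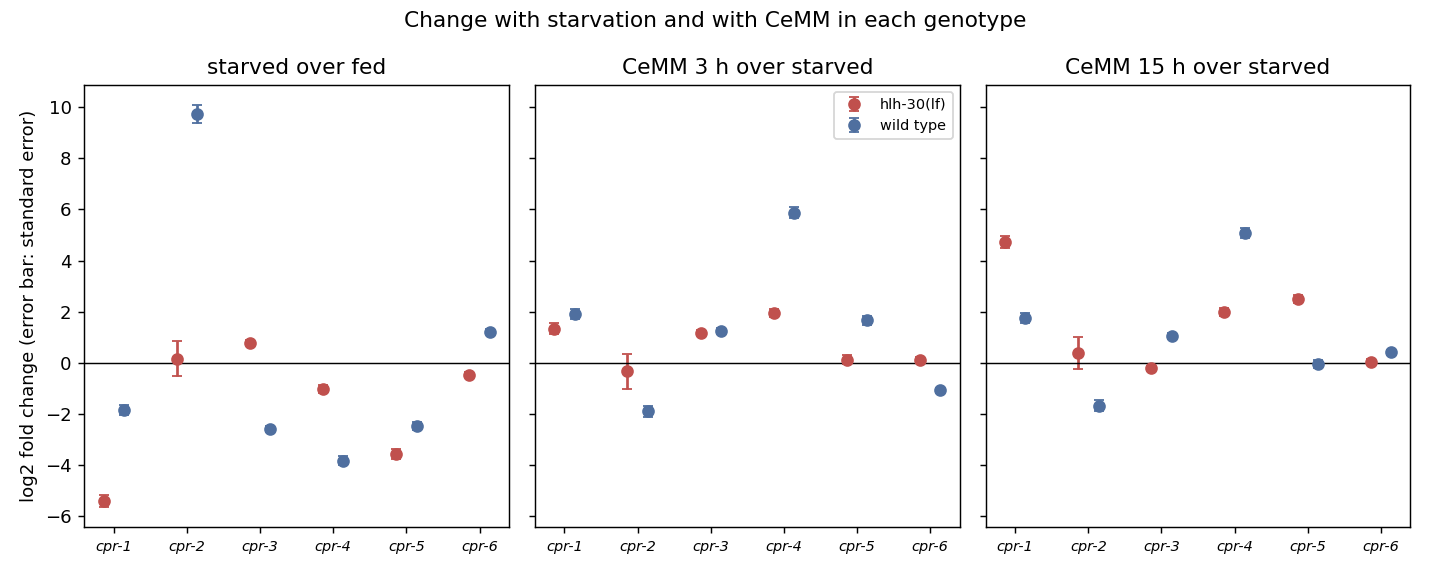
Log2 fold change of each *cpr* gene for starved over fed, CeMM 3 h over starved and CeMM 15 h over starved worms, *hlh-30(lf)* left of wild type, with the standard error as bar. The largest changes in wild type were those of *cpr-2* with starvation and of *cpr-4* with CeMM, and in *hlh-30(lf)* those of *cpr-1* with starvation and with 15 hours of CeMM.

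The starvation responses of the 5 other members differed between genotypes when that difference was tested as an interaction. Each interaction contains the wild-type change of starved over fed worms, the contrast that chose the family through *cpr-2*, so *cpr-2* was not tested. The change with starvation was more positive in *hlh-30(lf)* for *cpr-3* and *cpr-4* and more negative for *cpr-1*, *cpr-5* and *cpr-6*, so that 2 of 5 tested members were called higher and 3 lower, against 14.1% and 13.6% of all genes. For *cpr-3* the interaction was 3.37 on the log2 scale (standard error 0.16, adjusted p = 1.47e-15) and for *cpr-6* -1.67 (standard error 0.14, adjusted p = 2.02e-10). Both genes moved in opposite directions in the genotypes.

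CeMM for 3 hours was followed by a surge of *cpr-4* in wild type. Relative to starved worms it was 58.8-fold higher (log2 fold change 5.88, standard error 0.20, adjusted p = 4.52e-10), while *cpr-1* was 3.76-fold higher (1.91, standard error 0.19, adjusted p = 1.51e-05), *cpr-5* 3.15-fold higher (1.66, standard error 0.17, adjusted p = 8.74e-06) and *cpr-3* 2.38-fold higher (1.25, standard error 0.12, adjusted p = 1.52e-09). *cpr-6* was 2.12-fold lower (-1.08, standard error 0.10, adjusted p = 8.58e-10). These were 4 higher and 1 lower of 5 tested members, against 15.0% higher and 15.1% lower of all genes. In *hlh-30(lf)* worms, *cpr-4* was 3.88-fold higher (log2 fold change 1.96, standard error 0.17, adjusted p = 6.95e-06), *cpr-1* 2.53-fold higher (1.34, standard error 0.22, adjusted p = 0.00172) and *cpr-3* 2.26-fold higher (1.18, standard error 0.10, adjusted p = 1.39e-09), which made 3 higher and 0 lower of 6, against 7.71% and 8.71% of all genes. *cpr-5* (0.13, standard error 0.17, adjusted p = 0.739) and *cpr-6* (0.13, standard error 0.10, adjusted p = 0.529) did not pass the test in *hlh-30(lf)*.

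In the test of the difference at 3 hours, *cpr-4* (interaction -3.92, standard error 0.24, adjusted p = 2.22e-07) and *cpr-5* (-1.53, standard error 0.24, adjusted p = 0.000506) had smaller changes in *hlh-30(lf)*, set against those of wild type. *cpr-6* had an interaction of 1.21 (standard error 0.14, adjusted p = 1.38e-07). This was 1 of 5 tested members called higher and 2 lower, against 10.3% and 11.5% of all genes. For *cpr-1* (-0.57, standard error 0.29, adjusted p = 0.237) and *cpr-3* (-0.07, standard error 0.16, adjusted p = 0.994) no difference between the responses was called. That of *cpr-1* was called with the legacy method (adjusted p = 0.00200), without normalization factors (adjusted p = 0.0322) and with the compared groups only (adjusted p = 0.0448). The level of *cpr-3* thus kept its gap between genotypes from the starved to the CeMM 3 h state within these errors.

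After 15 hours of CeMM, *cpr-1* and *cpr-5* had regained much of their fed level in *hlh-30(lf)*. Relative to starved libraries labelled *hlh-30(lf)*, *cpr-1* was 26.5-fold higher (log2 fold change 4.73, standard error 0.22, adjusted p = 3.91e-08), *cpr-5* 5.65-fold higher (2.50, standard error 0.17, adjusted p = 3.30e-07) and *cpr-4* 3.95-fold higher (1.98, standard error 0.17, adjusted p = 2.04e-06). These were 3 higher and 0 lower of 6, against 15.6% and 15.1% of all genes. *cpr-3* was not called (-0.21, standard error 0.10, adjusted p = 0.133), though it was without CeMM 15 h *hlh-30(lf)* replicate 2 (adjusted p = 0.0475) or starved *hlh-30(lf)* replicate 2 (adjusted p = 0.00747). In wild type, *cpr-4* was 33.9-fold higher (5.08, standard error 0.19, adjusted p = 1.70e-09), *cpr-1* 3.36-fold higher (1.75, standard error 0.19, adjusted p = 3.41e-05), *cpr-3* 2.05-fold higher (1.04, standard error 0.12, adjusted p = 7.90e-08) and *cpr-6* 1.33-fold higher (0.41, standard error 0.10, adjusted p = 0.00178). This made 4 higher and 0 lower of 5 tested, against 15.4% and 13.8% of all genes. The call of *cpr-6* was lost without wild-type CeMM 15 h replicate 2 (adjusted p = 0.0520), the library rich in ribosomal RNA, or starved wild-type replicate 1 (adjusted p = 0.0697), one of those with yolk transcripts.

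*cpr-5* in wild type was back at 0.962-fold its starved level after 15 hours (log2 fold change -0.06, standard error 0.16, adjusted p = 0.940). The interactions at 15 hours were 2.55 for *cpr-5* (standard error 0.24, adjusted p = 7.06e-06), 2.98 for *cpr-1* (standard error 0.28, adjusted p = 1.75e-05), -3.10 for *cpr-4* (standard error 0.24, adjusted p = 1.49e-06) and -1.25 for *cpr-3* (standard error 0.16, adjusted p = 5.29e-07). Thus 2 of 5 tested members were called higher and 2 lower, against 10.4% and 12.0% of all genes. The interaction of *cpr-6* was not called (-0.37, standard error 0.14, adjusted p = 0.0626). It was called with the legacy method (adjusted p = 0.0420) and without wild-type CeMM 15 h replicate 1 (adjusted p = 0.0198), starved wild-type replicate 2 (adjusted p = 0.0270) or CeMM 15 h *hlh-30(lf)* replicate 1 (adjusted p = 0.04995). The comparisons with starved worms share the same starved samples, so they are not independent of each other.

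Relative to fed worms, the CeMM 15 h state was not a return to the fed pattern in either genotype. In *hlh-30(lf)*, *cpr-4* was 1.93-fold higher (log2 fold change 0.95, standard error 0.16, adjusted p = 0.000785) and *cpr-3* 1.48-fold higher (0.57, standard error 0.11, adjusted p = 8.96e-05) than in fed worms. *cpr-5* was 2.10-fold lower (-1.07, standard error 0.16, adjusted p = 0.000321), *cpr-1* 1.60-fold lower (-0.68, standard error 0.18, adjusted p = 0.0168) and *cpr-6* 1.34-fold lower (-0.42, standard error 0.10, adjusted p = 0.00161). These were 2 higher and 3 lower of 6, against 14.1% and 15.1% of all genes. Without fed *hlh-30(lf)* replicate 2, the calls of *cpr-1* (adjusted p = 0.0532) and *cpr-6* (adjusted p = 0.0614) were lost, and that of *cpr-6* was also lost without CeMM 15 h *hlh-30(lf)* replicate 2 (adjusted p = 0.0743). In wild type, *cpr-6* was 3.07-fold higher (1.62, standard error 0.10, adjusted p = 3.33e-13) and *cpr-4* 2.37-fold higher (1.25, standard error 0.16, adjusted p = 7.36e-05), while *cpr-5* was 5.75-fold lower (-2.52, standard error 0.17, adjusted p = 2.34e-07) and *cpr-3* 2.94-fold lower (-1.55, standard error 0.11, adjusted p = 5.15e-12). That was 2 higher and 2 lower of 5 tested, against 16.7% and 16.9% of all genes, and *cpr-1* was not called (-0.10, standard error 0.18, adjusted p = 0.813).

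The make-up of the family was compared per gene length, in RPKM (CPM divided by exon length in kilobases). The 6 genes summed to 684 ± 44.2 RPKM in fed *hlh-30(lf)* and 1014 ± 81.3 RPKM in fed wild type, and to 191 ± 11.6 RPKM in starved libraries labelled *hlh-30(lf)* and 850.04 ± 111 RPKM in starved wild type (SD, n = 2 each). With CeMM they summed to 401 ± 4.37 RPKM at 3 hours in *hlh-30(lf)* and 1637 ± 9.87 RPKM in wild type, and to 575 ± 40.4 RPKM at 15 hours in *hlh-30(lf)* and 1141 ± 7.72 RPKM in wild type. These sums leave out *cpr-8* and *cpr-9*, which stand in the list of other papain-like proteases below. Among the 6 genes, fed worms of both genotypes had a like make-up, led by *cpr-5* with 42.4% of the sum in *hlh-30(lf)* and 39.4% in wild type. Outside the sum, *cpr-9* had a mean of 315 RPKM in fed worms of either genotype. *cpr-5* had 291 RPKM in fed *hlh-30(lf)* and 399 RPKM in fed wild type. When starved, *cpr-6* led in libraries labelled *hlh-30(lf)* with 36.5%, followed by *cpr-4* with 24.6% and *cpr-3* with 22.5%. In starved wild type *cpr-2* led with 46.4%, followed by *cpr-6* with 33.6%, and *cpr-4* and *cpr-3* had 1.60% and 0.570%. At 3 hours of CeMM *cpr-4* led in both genotypes, with 46.0% in *hlh-30(lf)* and 50.9% in wild type. The next were *cpr-3* with 24.5% in *hlh-30(lf)* and *cpr-1* with 18.6% in wild type.

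**Figure D4:**
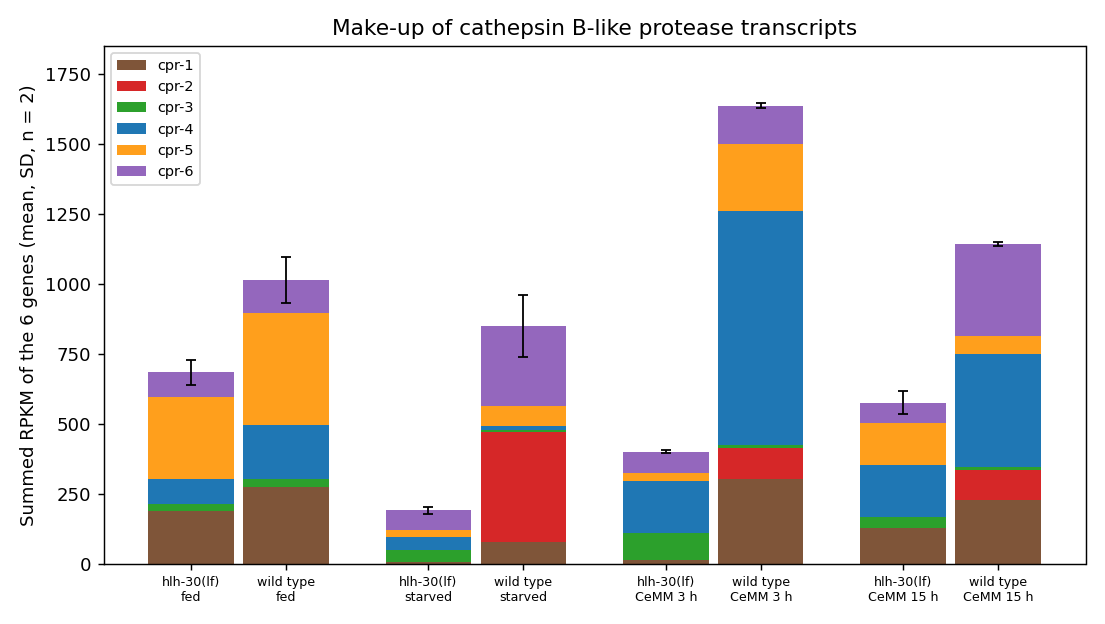
Summed RPKM of *cpr-1* to *cpr-6* in each group, mean of 2 samples with the SD as bar, stacked by gene, *hlh-30(lf)* left of wild type. The *cpr-2* segment is visible in starved and refed wild type, and the *cpr-3* segment is widest in starved and CeMM 3 h *hlh-30(lf)*.

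Across the 16 samples, members paired in part. The scale was log2(CPM + 1), with library sizes here adjusted by edgeR's TMM factors. On it, *cpr-1* and *cpr-5* correlated with Pearson r = 0.856 and *cpr-2* and *cpr-6* with r = 0.862. *cpr-3* ran against *cpr-2* (r = -0.892) and *cpr-6* (r = -0.839). *cpr-4* followed none closely, with r from 0.0123 with *cpr-2* to 0.480 with *cpr-1*. These values describe 16 libraries in 8 groups that share their library sizes, and carry no test. Likeness was sought among the 8595 genes averaging 10 or more of these adjusted CPM. The ones most like each member were *ftn-2*, a ferritin (r = 0.987), and T24C12.3 (r = 0.980) for *cpr-1*, and F40E3.5 (r = 0.994) and M176.4 (r = 0.989) for *cpr-2*. F40E3.5 had 1.09 and 1.29 CPM in starved libraries labelled *hlh-30(lf)*, against 289 and 244 CPM in starved wild type, and 1.68 and 1.58 CPM in fed wild type. For *cpr-3* they were C34D4.4 (r = 0.980) and the hexokinase gene *hxk-1* (r = 0.975), for *cpr-4* *let-721* (r = 0.958), a dehydrogenase of the electron transfer flavoprotein, and T07E3.4 (r = 0.956). For *cpr-5* they were *gcsh-1* (r = 0.976), which encodes a protein of the glycine cleavage system, and the nucleoside transporter gene *ent-4* (r = 0.967), and for *cpr-6* the phosphoenolpyruvate carboxykinase gene *pck-2* (r = 0.971) and K07E3.4 (r = 0.955).

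The genes around *cpr-2* differed in direction. The 4 nearest genes on either side that averaged 1 CPM or more were chosen by position. In starved libraries labelled *hlh-30(lf)*, 5 of these 8 were lower and 2 higher than in starved wild type, against 19.3% and 18.8% of all genes. The nearest, Y32B12B.2, began 4286 bases away, had 15.8 to 47.6 CPM over the 16 samples and differed by -0.85 on the log2 scale (standard error 0.09, adjusted p = 1.28e-08). The cathepsin L gene *cpl-1* lies 58461 bases away on the same strand. T03E6.8, 66457 bases away, moved as *cpr-2* did, with 1.74 to 82.6 CPM over the 16 samples, a log2 difference of 3.03 in starved over fed wild type and of -3.34 (standard error 0.21, adjusted p = 6.91e-08) in starved libraries labelled *hlh-30(lf)* over starved wild type.

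The other papain-like proteases form a list of 20 genes, chosen like the members with earlier results known, and held genes that moved either way. Of these, 5 were called higher and 10 lower in starved libraries labelled *hlh-30(lf)* than in starved wild type, against 18.8% and 19.3% of all genes. Their median difference was -0.31 on the log2 scale, against 0.00 over all genes. The 6 most abundant were all lower. *cpz-1*, a cathepsin Z gene known in worms for a part in molting, had 18.2 and 14.3 CPM in starved libraries labelled *hlh-30(lf)*, against 336 and 343 CPM in starved wild type (-4.46, standard error 0.12, adjusted p = 1.90e-21). *cpr-9* had 13.1 and 7.09 CPM, against 87.5 and 110.0 CPM in starved wild type (-3.37, standard error 0.29, adjusted p = 1.18e-05). *cpl-1*, the cathepsin L gene that embryos need to process yolk, had 129.9 and 105 CPM, against 374 and 421 CPM in starved wild type (-1.83, standard error 0.11, adjusted p = 1.37e-12). R07E3.1 (-1.42), *cpz-2* (-1.14) and *tag-196* (-0.42), a cathepsin F-like gene, had smaller log2 differences. In fed worms 1 of the 20 was higher and 3 lower in *hlh-30(lf)*, against 2.26% and 2.16% of all genes. At CeMM 3 h 8 were higher and 10 lower, against 17.7% and 18.6%. At CeMM 15 h 3 were higher and 9 lower, against 11.7% and 12.4%.

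The genes whose products restrain or process these enzymes were higher when starved in *hlh-30(lf)*-labelled libraries, 4 of 4 listed, against 18.8% of all genes. The cystatin genes *cpi-1* and *cpi-2* encode inhibitors of cysteine proteases. *cpi-1* had 60.7 and 44.0 CPM in starved libraries labelled *hlh-30(lf)*, against 10.32 and 10.9 CPM in starved wild type (log2 fold change 2.23, standard error 0.21, adjusted p = 4.76e-06), and *cpi-2* had 307 and 252 CPM, against 85.6 and 87.1 CPM in starved wild type (1.63, standard error 0.12, adjusted p = 1.62e-10). *lgmn-1*, a gene for an asparaginyl endopeptidase of the type that matures lysosomal proteases in mammals, had a log2 fold change of 0.67 (standard error 0.08), and *srp-6*, a serpin gene that protects worm intestinal cells from lysosomal cysteine proteases, of 0.37 (standard error 0.10). At CeMM 3 h all 4 were again higher in *hlh-30(lf)*, against 17.7% of all genes. In fed worms 2 were higher and 1 lower, against 2.26% and 2.16% of all genes. At CeMM 15 h 2 were higher and 1 lower, against 11.7% and 12.4%.

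The aspartyl proteases *asp-1* to *asp-6*, lysosomal and gut enzymes of another catalytic class, were alike in being lower in *hlh-30(lf)* in the starved state. There 6 of 6 were lower, against 19.3% of all genes. *asp-1* had 453 and 448 CPM in starved libraries labelled *hlh-30(lf)*, against 9393 and 10820 CPM in starved wild type (log2 fold change -4.56, standard error 0.12, adjusted p = 1.33e-16). *asp-4*, at the other end of the list, had 224 and 214 CPM, against 263 and 242 CPM in starved wild type (-0.27, standard error 0.08, adjusted p = 0.00902). In fed worms the log2 fold changes of the *asp* genes ran from -0.10 for *asp-1* to -0.0018 for *asp-5*, with adjusted p of 0.858 to 1.0. At CeMM 3 h 5 were lower and 1 higher, against 18.6% and 17.7% of all genes. At CeMM 15 h 5 were lower, against 12.4% of all genes. The *asp* list held no gene that was higher in starved libraries labelled *hlh-30(lf)*, whereas the *cpr* family held *cpr-3* and *cpr-4*, a difference of the lists that was not tested.

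**Figure D5:**
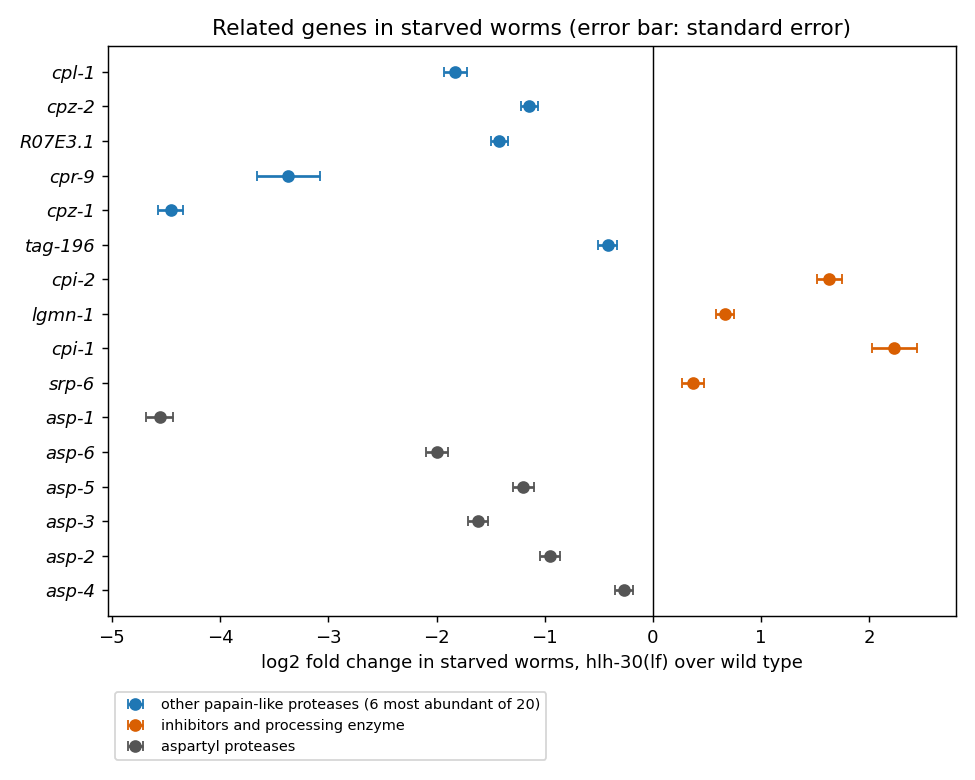
Log2 fold change in starved worms, *hlh-30(lf)* over wild type, with the standard error as bar, for the 6 most abundant of the other papain-like proteases, the 4 inhibitor and processing genes and the 6 aspartyl proteases. Every inhibitor or processing gene lies above 0 and every other gene shown lies below 0.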

How the data were processed

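Reads of whole worms (single-end, 50 nucleotides) were aligned by the authors with STAR 2.0.4b and counted per gene with featureCounts of Subread (version 1.45 in the submitters' processing notes) on WBcel235; the strand setting is not given in the sources used here. The deposited counts are raw counts per gene, the deposited CPM values are those counts scaled to a library of 1e6, and the deposited RPKM values are CPM per kilobase of exon; both were recomputed from the counts and agree within rounding. CPM and RPKM served as levels. Tests used counts: the 30177 genes with a count were scaled with TMM factors and tested in edgeR 4.0.16 (R 4.3.3; quasi-likelihood, robust, newer method), 1 coefficient per group, all 16 samples, Benjamini-Hochberg adjustment, called at 0.05. Standard errors were obtained as the absolute log2 fold change over sqrt(F). Interactions subtract the wild-type from the *hlh-30(lf)* response. The code was tested on simulated data. Depth and its limit of 3 counts stand in the text. Alternatives were DESeq2 1.42.0, limma-voom (limma 3.58.1), RLE or no normalization factors, filterByExpr (which kept 17441 genes), the legacy quasi-likelihood method, replicate number as a block, compared groups only, ribosomal RNA genes left out and each sample left out; after seeing the data, the 3 libraries with yolk transcripts left out and a crossed block were added. For likeness, a pseudocount of 0.1 in place of 1 CPM and means of the 8 groups were tried.

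Members and lists were chosen with earlier results of these data known. Named genes are the members, at most the 6 most abundant by RPKM of each list, the 2 genes most correlated with each member, and *hlh-30*. Chosen after their values were seen were *vit-2*, *elt-2*, *ges-1*, *ifb-2*, *act-5*, *lin-26*, *dpy-7* and the neighbours of *cpr-2*. Symbols of 43623 gene identifiers came from a names table. Sequences of the members are not shown. Summaries used pandas 2.3.3 and numpy 2.4.6 under Python 3.11.15, and plots matplotlib 3.10.9.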

Additional observations from a re-analysis of the deposited data

Results flagged for a closer look

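The responses below differed between genotypes in a test of the difference itself, the *hlh-30(lf)* change minus the wild-type change on the log2 scale, by edgeR with adjustment over all genes. For starved against fed worms the difference was -3.56 for *cpr-1* (adjusted p = 2.99e-06), 3.37 for *cpr-3* (adjusted p = 1.47e-15), 2.80 for *cpr-4* (adjusted p = 2.43e-06), -1.10 for *cpr-5* (adjusted p = 0.00347) and -1.67 for *cpr-6* (adjusted p = 2.02e-10). For CeMM 3 h against starved worms it was -3.92 for *cpr-4* (adjusted p = 2.22e-07), -1.53 for *cpr-5* (adjusted p = 0.000506) and 1.21 for *cpr-6* (adjusted p = 1.38e-07). For CeMM 15 h against starved worms it was 2.98 for *cpr-1* (adjusted p = 1.75e-05), -1.25 for *cpr-3* (adjusted p = 5.29e-07), -3.10 for *cpr-4* (adjusted p = 1.49e-06) and 2.55 for *cpr-5* (adjusted p = 7.06e-06). The 3 sets share the starved samples, and the first contains the wild-type contrast that chose the family through *cpr-2*. With 2 samples a group, no sample could be tested for standing apart from its group.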

How the results depend on the processing

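Of 2358 member values over 27 alternative settings, 2300 kept their direction and their side of the threshold or, where no test was made, moved by less than their standard error. In fed worms, the 2 members called between *hlh-30(lf)* and wild type became 4 under DESeq2, 5 with the compared groups only, 4 with the legacy method and 4 without normalization factors. The number called among all genes changed with the setting too, so these counts are not read as a trait of the members. Over all settings, the log2 fold change of *cpr-6* in fed worms ran from -0.52 to -0.34. For CeMM 15 h over fed in *hlh-30(lf)*, it ran from -0.91 to -0.48 for *cpr-1* and from -0.53 to -0.31 for *cpr-6*. Without normalization factors the *cpr-6* call for CeMM 15 h over starved wild type was lost (log2 fold change 0.21, adjusted p = 0.128). The *cpr-1* call for CeMM 15 h over fed in *hlh-30(lf)* was lost with the compared groups only (adjusted p = 0.0524). Leaving out the normalization factors moved the median of all genes by 0.27 on the log2 scale for *hlh-30(lf)* over wild type at CeMM 15 h, the widest such shift among the group comparisons.

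Signs turned in values that did not pass the test. With 1 sample left out, *cpr-6* ranged from -0.0357 to 0.17 for CeMM 15 h over starved *hlh-30(lf)*, and *cpr-2* from -0.15 to 0.43 for starved over fed *hlh-30(lf)*. The *cpr-3* interaction at 3 hours ranged from -0.23 to 0.11, *cpr-5* from -0.23 to 0.15 for CeMM 15 h over starved wild type, and *cpr-1* from -0.29 to 0.0699 for CeMM 15 h over fed wild type. Without the 3 yolk libraries, a setting chosen after seeing the data, the *cpr-3* interaction at 3 hours was 0.0098 and *cpr-1* for CeMM 15 h over fed wild type 0.0699.

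Same-numbered replicates deviated together in 6 of 28 pairs of groups (correlation over 0.1) and in opposite directions in 6 (under -0.1), with a mean of 0.01. Although the methods describe replicates run with their own controls, no source ties a replicate number to an occasion. The numbers were therefore not taken as pairs. With the replicate block, 3 members were called in fed worms, *cpr-5* being added (adjusted p = 0.0141), and no other member's call changed. A crossed block, added after seeing the data, lost no member's call for CeMM 3 h over starved wild type. Nor did it lose one for *hlh-30(lf)* over wild type when starved or at CeMM 15 h. For likeness, over the means of the 8 groups the first gene of *cpr-4* and of *cpr-5* ranked 2 and those of the other 4 members ranked 1. Some second genes held less well there, with T24C12.3 at rank 9, *hxk-1* at 6, and *ent-4* and K07E3.4 at 4, while M176.4 ranked 2 and T07E3.4 ranked 1. With a pseudocount of 0.1, T24C12.3 ranked 4, T07E3.4 ranked 3 and *ent-4* ranked 6, and the other genes named kept their ranks.

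With 2 samples a group, few counts limit *cpr-2* in *hlh-30(lf)* and fed wild type, where its log2 fold changes had standard errors of 0.62 to 0.70. A call needs a change well above its standard error, so changes larger than these values could also go undetected.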
